A study of Mus musculus with 2 samples.

Results

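The nuclei described here are T cell nuclei of the mouse gut that carry Foxp3 RNA together with RNA of genes linked to tissue-repair regulatory T cells. They were chosen by their RNA alone, as nuclei with 500 to 4000 unique molecular identifiers (UMIs, counted RNA molecules) that hold at least 1 UMI of Cd3d, Cd3e or Cd3g, at least 1 of Foxp3 and at least 1 of Klrg1, Il1rl1, Penk, Pcsk1 or Nckap5. In all, 213 of 6614 deposited barcodes met the rule, 63 of 2391 in the knockout library and 150 of 4223 in the control library. They are called repair-type nuclei below and are set against the other Cd3-positive nuclei in the same UMI window, 819 in the knockout and 1880 in the control library. A nearer comparison is with the 33 knockout and 92 control nuclei that are positive for Cd3 and Foxp3 but hold no UMI of the 5 markers, called the marker-negative Foxp3 nuclei.

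RNA and open chromatin were measured in the same nuclei of CD4+CD44+CD62L- effector T cells, sorted without CD8a, CD11c, CD45R and F4/80 from colon and small intestine, which were pooled, of mice 26 to 33 weeks old. The knockout library came from CD4creZfp362flox/flox mice, in which a Cre recombinase under Cd4 regulatory sequence deletes the floxed part of Zfp362, a gene for a zinc-finger protein, in T cells, and the control library from Zfp362flox/flox mice without Cre. Both groups therefore carry the floxed alleles, and they differ in the Cre transgene as well as in Zfp362. The library titles name the same groups as Zfp362-/- and Zfp362+/+. The design text counts 7 mice and leaves unsaid if that is in all or for each genotype. With 1 library per genotype the animals, the library and the genotype cannot be told apart, so no test across samples exists.

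Foxp3 is the transcription factor that defines regulatory T (Treg) cells, which restrain immune responses. In barrier tissues a subset of them carries ST2, the receptor for the alarmin IL-33 (gene Il1rl1), and the inhibitory receptor KLRG1, depends on GATA3 and BATF, and makes amphiregulin (Areg), an epidermal growth factor receptor ligand linked to epithelial repair. Penk encodes the precursor of enkephalin opioid peptides and Pcsk1 a protease that cuts such precursors. Another gut Treg population expresses RORgt and MAF, makes interleukin-10 and depends on the microbiota.

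The shares of repair-type nuclei in the knockout and control libraries lay within each other's counting intervals. They made up 7.14% (63 of 882; 95% exact binomial interval 5.53 to 9.05) of the Cd3-positive nuclei in the window in the knockout and 7.39% (150 of 2030; 6.29 to 8.61) in the control library. Of the Foxp3-positive nuclei among these, they were 65.6% (63 of 96; 55.2 to 75.0) and 62.0% (150 of 242; 55.5 to 68.1). Without the upper limit the share of Cd3-positive nuclei was 12.5% in the knockout and 9.72% in the control library. After every nucleus was thinned to 1000 UMIs, leaving out shallower ones, 20 of 576 knockout (3.47%, 2.13 to 5.31) and 54 of 1468 control Cd3-positive nuclei (3.68%, 2.78 to 4.77) met the rule. All intervals in the text are at the 95% level and cover counting error only.

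The median repair-type nucleus held 2270 UMIs in the knockout and 2239.5 UMIs in the control library, against 2125 and 1958.5 UMIs in the other Cd3-positive nuclei. The summed RNA of repair-type nuclei was 151124 and 360830 UMIs. The rule uses few molecules: 43 of 63 knockout and 107 of 150 control nuclei had exactly 1 Foxp3 UMI, and 11 and 26 had exactly 1 marker UMI. Near the upper limit, 5 knockout and 13 control nuclei with more than 3500 UMIs were inside the rule, and 7 and 16 barcodes with up to 4500 UMIs met all of it except the limit. Above 4000 UMIs, 110 knockout barcodes (median 12106 UMIs) and 90 control barcodes (median 6133.5 UMIs) met the other conditions, and no barcode below 500 UMIs did. Foxp3 UMIs also occurred without Cd3 UMIs, in 2.58% of knockout and 3.47% of control nuclei of the window with no Cd3 UMI (median depths 1927 and 1833 UMIs), against 10.9% and 11.9% of Cd3-positive nuclei. The libraries shared 11 barcodes, of which 1 belonged to a repair-type nucleus in 1 library and none in both.

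Summed markers of T cells stood at similar levels in both populations, with 4361 against 4565 CPM in the knockout library and 3827 against 4257 CPM in the control library, and all 8 genes of that list were detected in repair-type nuclei of both libraries. Cd3d, Cd3e and Cd3g of that list chose both populations, so the rule favours their detection in each. Outside the rule, Trbc2 had 410 against 619 CPM in the knockout library and 499 against 720 CPM in the control library. Trac had 629 against 560 CPM in the knockout library and 657 against 634 CPM in the control library. Markers of other cells the gate could hold were low, given here for repair-type against other Cd3-positive nuclei. Gamma delta T cell genes summed to 6.62 against 42.0 CPM in the knockout library and 2.77 against 30.3 CPM in the control library, and Trdc had no UMI in repair-type nuclei. Genes of group 3 innate lymphoid cells summed to 39.7 against 199.8 CPM in the knockout library and 108 against 179.7 CPM in the control library; Ncr1 and Ddc had no UMI in repair-type nuclei of either library. Genes of group 2 innate lymphoid cells, which also use ST2, GATA3 and amphiregulin, summed to 79.4 against 120.1 CPM in the knockout library and 55.4 against 142 CPM in the control library. B cell genes were higher, at 46.3 against 32.9 CPM in the knockout library and 74.8 against 39.1 CPM in the control library, with Pax5 and Ms4a1 at no UMI in repair-type nuclei. The other lists stood at 0 against 3.23 CPM in the knockout library and 8.31 against 1.77 CPM in the control library for CD8 genes, at 19.9 against 36.6 CPM in the knockout library and 19.4 against 20.7 CPM in the control library for plasma cells and at 13.2 against 5.39 CPM in the knockout library and 5.54 against 7.07 CPM in the control library for myeloid cells, while the 4 mast cell genes had no UMI in repair-type nuclei. Epithelial genes summed to 119 against 132 CPM in the knockout library and 97.0 against 42.2 CPM in the control library. Within that list Epcam, an epithelial adhesion gene, was higher in repair-type nuclei, with 72.8 against 16.2 CPM in the knockout library (11 UMIs in repair-type nuclei) and 72.1 against 20.4 CPM in the control library (26 UMIs). Marker-negative Foxp3 nuclei had 14.2 and 19.4 CPM of Epcam in the knockout and control libraries, on 1 and 4 UMIs. Stromal and endothelial genes summed to 159 against 179 CPM in the knockout library and 105 against 146 CPM in the control library, with 1 of 4 genes detected in repair-type nuclei. Mitochondrial UMIs were 0.165% and 0.341% of all UMIs in knockout and control repair-type nuclei, against 0.220% and 0.390% in the other nuclei. The part of these differences in the results below was not tested.

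Il1rl1, Klrg1 and Nckap5 carried the selection. Il1rl1 was found in 32 of 63 knockout and 94 of 150 control repair-type nuclei, Klrg1 in 36 and 67, and Nckap5 in 33 and 85. Penk was found in 7 and 27 nuclei and Pcsk1 in 4 and 12, and only 1 knockout and 3 control nuclei held both, so the enkephalin precursor and its protease were seen together in few nuclei. Il1rl1 and Klrg1 occurred together in 17 knockout and 47 control nuclei, and 12 and 36 nuclei had neither and were chosen by Nckap5, Penk or Pcsk1. A single marker gene selected 31 knockout and 69 control nuclei.

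**Figure D1:**
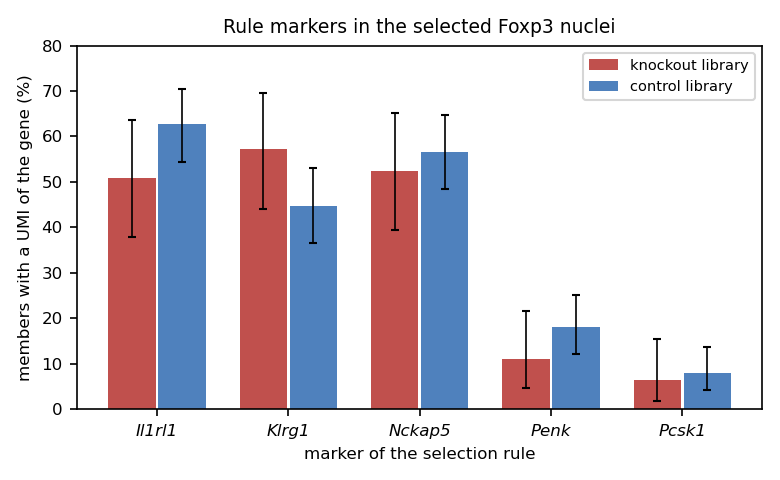
Share of repair-type nuclei with at least 1 UMI of each marker gene of the selection rule, in the knockout library (red, n = 63 nuclei) and the control library (blue, n = 150 nuclei); error bars are exact 95% binomial intervals over nuclei of 1 library. Il1rl1, Klrg1 and Nckap5 stand between 44.7% and 62.7%, and Penk and Pcsk1 at 18% or less.

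The levels of the genes used for selection are a description and no result. In CPM (UMIs of a gene per 1000000 summed UMIs), repair-type against other Cd3-positive nuclei had 629 against 23.7 CPM in the knockout and 568 against 35.6 CPM in the control library for Foxp3. Il1rl1 stood at 913 against 189.6 CPM in the knockout and 1117 against 207 CPM in the control library, and Klrg1 at 410.3 against 72.7 CPM in the knockout and 360.3 against 61.9 CPM in the control library. Nckap5 had 1535 against 134 CPM in the knockout and 992 against 136 CPM in the control library, and Penk had 159 against 96.9 CPM in the knockout and 319 against 84.3 CPM in the control library. The other nuclei thus also held Il1rl1 and Penk RNA, without Foxp3 UMIs. Of the 2 markers of the label that the rule did not use, Ikzf2, which encodes the Treg factor Helios, had 3838 against 1561 CPM in the knockout and 2957 against 1358 CPM in the control library. Ikzf2 thus had log2 ratios of 1.30 (1.17 to 1.43) and 1.12 (1.03 to 1.22). Lrrc32, which encodes the TGF-beta docking receptor GARP, had 9 and 19 UMIs in repair-type nuclei, 59.6 against 14.5 CPM in the knockout and 52.7 against 22.5 CPM in the control library, log2 ratios of 2.08 (0.76 to 3.16) and 1.26 (0.43 to 1.96), on fewer UMIs than the limit for a measured gene given next. Both markers were thus higher in repair-type nuclei of both libraries.

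Beyond the rule, the RNA of repair-type nuclei differed from the other Cd3-positive nuclei in Treg and repair genes on the higher side and in most T helper 1 (Th1) genes on the lower side. A gene counted as measured where its mean level gave at least 5 expected UMIs in the repair-type nuclei of each library, and was called where the log2 ratio was at least 1, a 2-fold difference, in both libraries. Of 4448 measured genes, 63 (1.42%) were called higher and 111 (2.5%) lower; without the upper limit of 4000 UMIs, 19 were called higher and 25 lower. The counting intervals lay above 0 in both libraries for 209 genes (4.7%) and below 0 for 287 (6.45%), and the median log2 ratio over all measured genes was -0.05 in each library. The genes named below led by the ratio nearer to 0 of the 2 libraries.

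Among the 15 leading genes, Areg, the gene of amphiregulin, had 814 CPM in repair-type nuclei against 288 CPM in the other nuclei of the knockout library, and 1095 against 288 CPM in the control library. Its log2 ratio was 1.50 (1.20 to 1.78) in the knockout and 1.93 (1.76 to 2.09) in the control library, so it was higher in both. Il10, the gene of the inhibitory cytokine interleukin-10, had 887 CPM in repair-type nuclei against 232 CPM in the other nuclei of the knockout library, and 682 against 242 CPM in the control library. On the log2 scale the ratios of Il10 were 1.94 and 1.50, and the one nearer to 0 fell short of 2-fold without Nckap5 in the rule and without the upper UMI limit. Tnfrsf9, which encodes the costimulatory receptor 4-1BB, had 2581 CPM in repair-type nuclei against 891 CPM in the other nuclei of the knockout library, and 2289 against 699.6 CPM in the control library. The log2 ratios of Tnfrsf9 were 1.54 and 1.71. Ly75, the gene of the endocytic receptor DEC-205, had 205 CPM in repair-type nuclei against 71.1 CPM in the other nuclei of the knockout library, and 299 against 76.2 CPM in the control library. Ly75 thus had log2 ratios of 1.55 and 1.98.

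Also among the 15, Ky, the gene of the kyphoscoliosis peptidase known from muscle, had 509.5 CPM in repair-type nuclei against 125 CPM in the other nuclei of the knockout library, and 446 against 100.5 CPM in the control library, with a log2 ratio of 2.03 (1.64 to 2.40) in the knockout and 2.15 (1.88 to 2.42) in the control library. Neb, which encodes the giant thin-filament protein nebulin, had 390.4 CPM in repair-type nuclei against 80.8 CPM in the other nuclei of the knockout library, and 466 against 98.5 CPM in the control library. On the log2 scale the ratios of Neb were 2.28 and 2.24. Its neighbour Arl5a, a small GTPase gene, had log2 ratios of 1.79 and 1.74. Frmd5, a gene of a FERM-domain protein of cell junctions, had 1105 CPM in repair-type nuclei against 195 CPM in the other nuclei of the knockout library, and 1519 against 296 CPM in the control library. The log2 ratios of Frmd5 were 2.50 and 2.36. Gas2l3, a gene of an actin and microtubule linker, had ratios of 1.96 and 1.79, and Raph1, which encodes the lamellipodium protein lamellipodin, of 1.42 and 1.70.

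Pcyt1a, which encodes the rate-limiting enzyme of phosphatidylcholine synthesis, had 701 CPM in repair-type nuclei against 219.7 CPM in the other nuclei of the knockout library, and 588 against 190.1 CPM in the control library. Pcyt1a thus had log2 ratios of 1.68 and 1.63. Dgkh, a diacylglycerol kinase gene, had ratios of 1.45 and 1.73. Tent5a, the gene of a non-canonical poly(A) polymerase, had 913 CPM in repair-type nuclei against 309 CPM in the other nuclei of the knockout library, and 1095 against 274 CPM in the control library. On the log2 scale the ratios of Tent5a were 1.57 and 2.0. Tmtc2 and Ttc39c completed the 15 with ratios of 2.62 and 1.68, and of 1.44 and 1.48. Neb, Tmtc2, Pcyt1a, Ly75, Tnfrsf9 and Ttc39c overlap another gene on the opposite strand, and whether counting used the strand is not given in the sources used here, so their values are uncertain to that extent.

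The lowest genes included Tgfbr2, which encodes the signalling TGF-beta receptor, at 92.6 CPM in repair-type nuclei against 319.9 CPM in the other nuclei of the knockout library, and 130.3 against 345 CPM in the control library. The log2 ratios of Tgfbr2 were -1.74 (-2.67 to -1.03) and -1.39 (-1.86 to -0.98). Ms4a4b, the gene of a T cell membrane protein, had 72.8 CPM in repair-type nuclei against 224 CPM in the other nuclei of the knockout library, and 72.1 against 266 CPM in the control library. Ms4a4b thus had log2 ratios of -1.56 (-2.64 to -0.77) and -1.86 (-2.51 to -1.33). Pde7a, a cyclic AMP phosphodiesterase gene, had ratios of -1.91 and -1.15. Dtx4, a Deltex ubiquitin ligase gene of the Notch pathway, rested on 5 UMIs in repair-type nuclei of each library, with ratios of -1.41 (-3.18 to -0.29) and -2.05 (-3.82 to -0.95). Uri1, Elmsan1, Rnf19a, Litaf, Rundc3b and Ssbp2 made up the rest, with ratios between -1.76 and -1.12 in the libraries. Litaf and Ssbp2 were no longer lower in both libraries when barcodes above 4000 UMIs were admitted, and Elmsan1, Pde7a, Litaf and Ssbp2 overlap other genes.

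Of 20 Treg identity genes, 17 were measured, 5 were called higher and none lower, and the intervals of 11 lay above 0 in both libraries; the median log2 ratios of the measured genes were 0.90 and 0.76. The list was chosen with earlier results of these data known. Itgb8, the integrin gene that activates TGF-beta, had ratios of 2.10 (1.63 to 2.55) and 1.68 (1.39 to 1.95), and Capg, an actin-capping protein gene, of 1.30 (0.56 to 1.93) and 1.85 (1.46 to 2.21). The costimulatory receptor genes Tnfrsf4 (OX40) and Tnfrsf18 (GITR) had ratios of 1.37 (1.13 to 1.61) and 1.28 (1.13 to 1.42), and of 1.08 (0.75 to 1.38) and 0.89 (0.67 to 1.10). Il2ra, the gene of the high-affinity interleukin-2 receptor chain CD25, had 443 CPM in repair-type nuclei against 239 CPM in the other nuclei of the knockout library, and 532 against 225 CPM in the control library, with ratios of 0.90 (0.50 to 1.26) and 1.24 (1.01 to 1.46). Ctla4, the gene of the inhibitory receptor that Treg cells carry constitutively, had 2839 CPM in repair-type nuclei against 1501 CPM in the other nuclei of the knockout library, and 2522 against 1488 CPM in the control library, with ratios of 0.92 (0.77 to 1.07) and 0.76 (0.66 to 0.86). The costimulatory receptor gene Icos had 0.42 (0.19 to 0.63) and 0.41 (0.26 to 0.55).

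Of 22 genes of the tissue-repair programme, 20 were measured, 4 were called higher and none lower; 9 had intervals above 0 in both libraries and 1 below, with medians of 0.88 and 0.83. Gata3, which encodes the factor that drives ST2 expression, had 847 CPM in repair-type nuclei against 398 CPM in the other nuclei of the knockout library, and 718 against 379 CPM in the control library. On the log2 scale the ratios of Gata3 were 1.09 (0.81 to 1.36) and 0.92 (0.72 to 1.11). Dgat2, the gene of the last enzyme of triglyceride synthesis, had ratios of 1.41 (0.61 to 2.09) and 1.41 (0.68 to 2.04), Dusp4, a MAP kinase phosphatase gene, of 1.46 (0.83 to 2.01) and 1.12 (0.70 to 1.50), and Itgav, the alpha V integrin gene, of 1.22 (1.06 to 1.37) and 1.34 (1.23 to 1.44). The inhibitory receptor gene Pdcd1 and the transcription factor gene Prdm1 had ratios of 1.11 and 0.96, and of 0.86 and 0.98. Furin, a proprotein convertase gene also held by the peptide-processing list, was the gene below 0, at -0.85 (-1.27 to -0.47) and -1.19 (-1.49 to -0.91). Batf, the factor gene tied to tissue Treg cells, stood at 0.35 (-0.42 to 0.98) and 0.30 (-0.15 to 0.70). Rora, which encodes a nuclear receptor, had an interval that included 0 in the knockout library, at 0.07 (-0.09 to 0.21), and was higher in the control library, at 0.62 (0.53 to 0.71). Ahr, the aryl hydrocarbon receptor gene, stood on opposite sides of 0, at 0.90 (0.33 to 1.39) and -0.18 (-0.71 to 0.27). Irf4, a factor gene of effector Treg cells, also did, at -1.42 (-3.19 to -0.30) and 0.51 (0.01 to 0.94), on 5 knockout and 45 control UMIs. Itgae, which encodes the epithelium-binding integrin CD103, had ratios of 0.54 (-0.29 to 1.21) and 1.82 (1.44 to 2.18), and Ccr8, a chemokine receptor gene of tissue Treg cells, of 1.0 (-0.19 to 1.91) and 1.72 (1.10 to 2.28); these differences between libraries were not tested.

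Of 18 suppressive effector genes, 14 were measured, 4 were called higher, and the intervals of 9 lay above and of 1 below 0 in both libraries, with medians of 0.86 and 0.89. The list shares genes with the lists above, so the counts are not independent. Of 11 genes of IL-33 receptor signalling, 9 were measured and none of these adaptors, kinases and factors downstream of ST2 was called, with medians of -0.10 and 0.17; Nfkb1 had intervals above 0 in both. Of 18 AP-1, BATF, IRF and NF-kB factors, 16 were measured and none called. Over all measured genes 1.42% were called higher and 2.5% lower, so the lack of calls sets neither list apart. Nfkb1, Rel and Nfkbia had intervals above 0 in both libraries, with ratios of 0.56 and 0.36, of 0.73 and 0.88, and of 0.40 and 0.40. The immediate early genes Fos and Fosb had intervals below 0, with ratios of -0.95 and -0.75, and of -1.19 and -0.87, as did Fosl2 and Bach2. Of 10 interleukin-2 and STAT5 genes, 9 were measured: Il2ra had intervals above 0, and Bcl2, a survival gene, was called lower at 139 CPM in repair-type nuclei against 315 CPM in the other nuclei of the knockout library, and 80.4 against 342 CPM in the control library, with ratios of -1.15 (-1.88 to -0.56) and -2.06 (-2.67 to -1.56).

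Most Th1 genes were lower in repair-type nuclei, and genes of other helper programmes were lower, not called or not measured, with 1 exception. All 8 Th1 genes were measured, 4 were called lower and 5 had intervals below 0 in both libraries, with medians of -1.46 and -2.49. By the ratio alone, 6 lay below 0 and 2 above 0 in both libraries. Il12rb2, the interleukin-12 receptor gene of Th1 cells, had 39.7 CPM in repair-type nuclei against 703 CPM in the other nuclei of the knockout library, and 36.0 against 490.0 CPM in the control library, with ratios of -4.03 (-5.60 to -3.02) and -3.71 (-4.68 to -2.99). Ifng, the gene of interferon-gamma, had 1 and 5 UMIs in repair-type nuclei, with ratios of -3.79 (-9.68 to -1.88) and -3.27 (-5.04 to -2.18), and Tbx21, which encodes the Th1 factor T-bet, had 1 UMI in each, with ratios of -3.38 (-9.28 to -1.47) and -4.52 (-10.41 to -2.62). Ccl5, a chemokine gene, had 92.6 CPM in repair-type nuclei against 381 CPM in the other nuclei of the knockout library, and 27.7 against 463 CPM in the control library, with ratios of -1.99 (-2.92 to -1.28) and -3.99 (-5.12 to -3.18). Of 9 quiescence and recirculation genes, 8 were measured and 4 (Ccr7, Tcf7, Satb1 and Bach2) had intervals below 0 in both, with medians of -0.60 and -0.80, the same with Tcf7 at its bound. Tcf7, which encodes the factor TCF-1 of naive and memory T cells, had no UMI in knockout repair-type nuclei against 116 CPM in the other nuclei, at least 5.83-fold lower when 3 UMIs stand for none, and 44.3 against 111 CPM in the control library. Of 9 RORgt Treg and T helper 17 genes, 6 were measured, and Il22, a barrier cytokine gene, and Il1r1 had intervals below 0 in both, Il22 at 112 CPM in repair-type nuclei against 435 CPM in the other nuclei of the knockout library, and 186 against 264 CPM in the control library. The inhibitory receptor gene Havcr2, counted in that list, was called higher, at 2.67 (1.86 to 3.41) and 1.32 (0.74 to 1.83). Of 5 Th2 genes only Il4 was measured, and it was called lower with 2 and 3 UMIs in repair-type nuclei, at -1.68 (-5.06 to -0.10) and -2.90 (-5.41 to -1.56). Of 6 follicular helper genes, 3 were measured and none had intervals on 1 side of 0 in both libraries. Of 5 peptide hormone processing genes, Furin alone was measured.

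**Figure D2:**
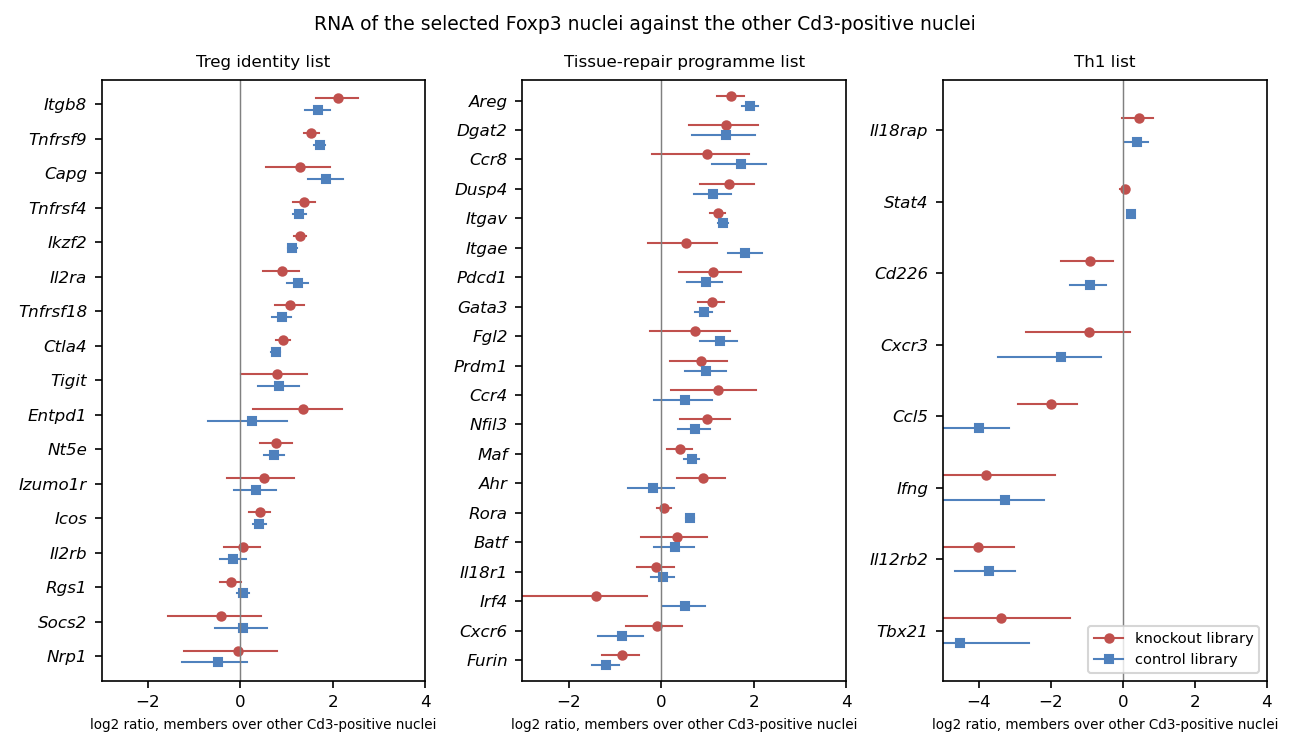
Log2 ratio of RNA in repair-type over other Cd3-positive nuclei for the measured genes of the Treg identity, tissue-repair and Th1 lists, with 95% counting intervals; red circles are the knockout and blue squares the control library, and intervals end at the axis limits. Most Treg identity and repair genes lie right of 0 in both libraries, while Ifng, Tbx21, Il12rb2 and Ccl5 lie left of it. Of the 8 Th1 genes, 2 lie right of 0 in both libraries.

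Repair-type nuclei were not alike among themselves, and the levels of several list genes differed with the marker that selected a nucleus. Of 20 measured repair genes, 9 were highest in the Il1rl1-positive nuclei of both libraries and 2 (Maf and Nfil3) lowest, against 9.96% and 9.42% of all measured genes. Of 14 measured suppressive effector genes, 2 were highest there in both libraries and 5 (Ctla4, Havcr2, Il10, Lgals1 and Tgfb1) lowest. Values are given for Il1rl1-positive nuclei (32 knockout, 94 control), then Klrg1-positive nuclei without Il1rl1 (19 and 20), then nuclei with neither (12 and 36). Areg had 1211 CPM (975 to 1487), 588 CPM (387 to 855) and 166 CPM (54.0 to 388) in the knockout and 1294 CPM (1147 to 1454), 1458 CPM (1139 to 1839.5) and 459.7 CPM (334 to 617) in the control library. Nuclei with neither marker were the lowest in both libraries, and the Klrg1-positive nuclei of the control library the highest. Gata3 had 1224 CPM (987 to 1501), 609.7 CPM (405 to 881) and 266 CPM (115 to 525) in the knockout and 1016 CPM (887 to 1160), 493 CPM (316 to 734) and 157 CPM (87.7 to 259) in the control library, in the same order in both and highest with Il1rl1. Ikzf2 followed that order too, at 4524, 3571 and 2529.5 CPM in the knockout and 3881, 2444 and 1128 CPM in the control library. Rora had 3459.5, 2069 and 1398 CPM in the knockout and 4070.4, 3163 and 1703 CPM in the control library. Tnfrsf9 had 3220.0, 2134 and 1664 CPM in the knockout, and 2689, 3163 and 940.4 CPM in the control library, where the Klrg1-positive nuclei were the highest.

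Il10, Ctla4 and Maf were lowest in Il1rl1-positive nuclei of both libraries. Il10 had 532 CPM (380.2 to 725), 1394 CPM (1073 to 1779.6) and 999 CPM (674 to 1425) in the knockout library, with the Il1rl1-positive nuclei lowest. In the control library it had 420.4 CPM (339 to 516), 719 CPM (501 to 999.8) and 1254 CPM (1039.6 to 1499). Ctla4 had 1943, 3484 and 4094 CPM in the knockout and 1746, 2547 and 4263 CPM in the control library, and Maf, which encodes a factor of interleukin-10-producing gut Treg cells, had 599, 1002 and 1464 CPM in the knockout and 748, 1048 and 1755 CPM in the control library, so both were highest in nuclei with neither marker. Foxp3, on which all nuclei were selected, had 652, 588 and 632 CPM in the knockout and 609.9, 514 and 502 CPM in the control library. The nuclei were split by RNA counts from the same libraries, so these levels are a description, and the differences were not tested.

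**Figure D3:**
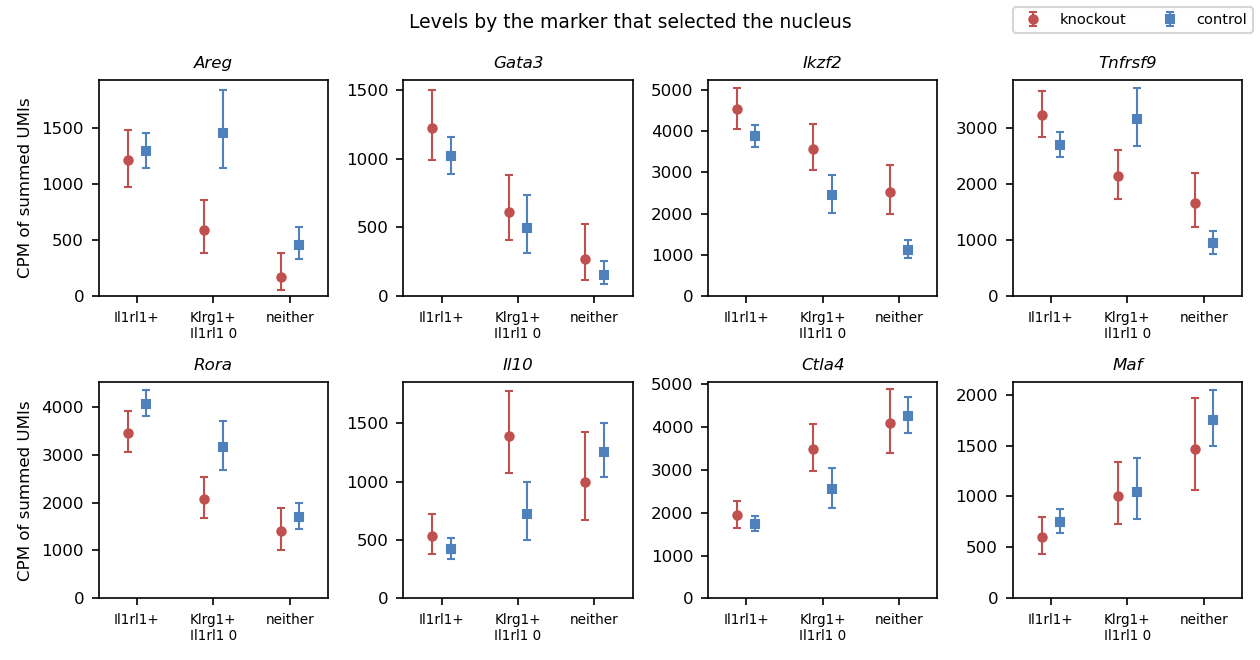
Level of 8 genes (CPM of summed UMIs) in repair-type nuclei with Il1rl1, with Klrg1 but no Il1rl1, and with neither; red circles are the knockout and blue squares the control library, and bars are 95% Poisson intervals. Gata3, Ikzf2 and Rora are highest with Il1rl1 in both libraries, and Ctla4 and Maf are highest with neither marker.

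Against the marker-negative Foxp3 nuclei, repair-type nuclei were higher in the repair genes Areg, Gata3, Rora and Cxcr6 and in 4 Treg identity genes. They were lower in 2 other Treg identity genes, all by intervals on 1 side of 0 in both libraries. No UMI of a marker is not absence, so both groups may hold the same kind of cell. Repair-type nuclei held most of the pooled UMIs, 151124 against 70333 in the knockout and 360830 against 205989 in the control library. A gene could thus meet the floor of 5 expected UMIs through repair-type nuclei alone. Of 4311 measured genes, 75 (1.74%) were called higher and 43 (0.997%) lower, and the intervals of 76 (1.76%) lay above and of 42 (0.974%) below 0 in both libraries. The balance turned without the upper UMI limit, with 126 higher and 150 lower, and was 53 higher and 57 lower without Nckap5 in the rule. With TMM scaling, which moved the median gene by 0.18 and 0.13 in the knockout and control libraries, the split was 114 higher and 20 lower. Of 19 measured Treg identity genes, none was called at 2-fold; Ikzf2, Tnfrsf4, Tnfrsf18 and Tnfrsf9 had intervals above and Ctla4 and Nt5e below 0 in both. Ctla4 had ratios of -0.42 (-0.64 to -0.19) and -0.62 (-0.75 to -0.48), and Nt5e, the gene of the adenosine-producing enzyme CD73, of -0.56 (-1.07 to -0.03) and -0.66 (-0.96 to -0.36). Of 21 measured repair genes, 5 were called higher, and the 5 with intervals above 0 in both libraries were Areg, Gata3, Rora, Cxcr6 and Dgat2. Dgat2 had no UMI in marker-negative nuclei of the knockout library and met the floor there through repair-type nuclei alone. Its place in this count is therefore a description. Areg had 814 against 355 CPM in the knockout and 1095 against 398 CPM in the control library, ratios of 1.17 (0.57 to 1.88) and 1.45 (1.11 to 1.82). Gata3 had ratios of 1.07 (0.49 to 1.73) and 1.34 (0.93 to 1.79), and Rora of 0.44 (0.16 to 0.73) and 0.71 (0.55 to 0.87). Of 16 measured suppressive effector genes, 1 was called higher.

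The 8 leading genes of that comparison were Rapgef2 and the gene 4921511C10Rik that overlaps it on the opposite strand, Tmtc2, Rad51b, Dgat2, Cybb, Pcyt1a and Gas2l3. Rapgef2, an activator of Rap GTPases, had 104 against 13 UMIs in the knockout and 262 against 25 UMIs in the control library, log2 ratios of 1.85 (1.06 to 2.85) and 2.56 (1.99 to 3.24). Rad51b, which encodes a homologous recombination protein, had 22 against 1 UMIs in the knockout and 57 against 6 UMIs in the control library, with ratios of 2.80 (0.73 to 8.72) and 2.34 (1.23 to 3.94). Dgat2 had 20 against 0 UMIs in the knockout and 24 against 4 UMIs in the control library, at least 3.10-fold higher in the knockout library when 3 UMIs stand for none. Cybb, the gene of the phagocyte NADPH oxidase subunit, had 11 against 0 UMIs in the knockout and 23 against 4 UMIs in the control library, at least 1.71-fold higher in the knockout library on the same count. Dgat2, Cybb and 4921511C10Rik had no UMI in marker-negative nuclei of the knockout library, where repair-type UMIs alone met the floor. Their ranking is therefore a description. Tmtc2, Pcyt1a and Gas2l3, also among the leaders against all other Cd3-positive nuclei, had ratios of 2.44 and 2.94, of 1.59 and 1.42, and of 1.40 and 2.03. Cybb and Gas2l3 lost that direction in at least 1 library when barcodes above 4000 UMIs were admitted. The 5 lowest were Rybp, Igf1r, Bach2, Grap2 and Txk, which also lost their direction in at least 1 library without the upper limit. Bach2, which encodes a repressor of effector differentiation, had ratios of -0.90 (-1.42 to -0.38) and -1.16 (-1.43 to -0.89), and Igf1r, the insulin-like growth factor receptor gene, of -1.06 (-1.82 to -0.30) and -0.94 (-1.37 to -0.52). Rybp, Grap2 and Txk had ratios of -1.34 and -0.99, of -0.80 and -1.23, and of -1.0 and -0.78.

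Chromatin accessibility, which the rule did not use, differed in a small share of regions. Peak counts were compared over 73219 regions where peaks of both libraries overlap, scaled to 1000000 counts. Of 14509 regions with at least 5 expected fragments in each library, 33 (0.227%) were called higher and 135 (0.93%) lower in repair-type than in the other Cd3-positive nuclei; 70 regions (0.482%) had intervals above and 55 (0.379%) below 0 in both libraries. Without the upper UMI limit the balance turned, with 110 higher and 76 lower. With at least 10 expected fragments only 7 were called, so most of these calls are of thinly covered regions. Transcript starts held 5 of the 33 higher regions (15.2%) and 18 of the 135 lower regions (13.3%), against 65.1% of all measured regions. Called and measured regions were not matched by coverage. What part thin coverage has in these shares was not tested. The leading region, chr17:84892998-84893995 on mm10, lies between genes 62746 bp from Ppm1b and had 58.0 against 16.6 CPM in the knockout library and 62.2 against 17.2 CPM in the control library. Its log2 ratios were 1.82 (0.99 to 2.66) and 1.86 (1.25 to 2.46). The next, chr2:83695152-83696331, lies 28066 bp from Itgav, the alpha V integrin gene whose RNA was higher in repair-type nuclei, and had 87.0 against 23.2 CPM in the knockout library and 62.2 against 22.6 CPM in the control library. Its ratios were 1.92 (1.19 to 2.58) and 1.47 (0.84 to 2.03). Others of the 10 leading regions lie in introns or exons of Ankrd55, Gxylt2, Cc2d2a and Blk, and between 69833 and 239905 bp from Chd2, Nrip1, Klf12 and Cxcr4. The 5 lowest, near or in Gadl1, Lrrc8d, Mbnl1, Nin and Coro1c, held at most 2 fragments of repair-type nuclei in either library.

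Summed over all regions within 10 kb of a gene, accessibility was higher in repair-type nuclei at Foxp3 and at several Treg and repair genes. Of 29 loci of the list, 25 had at least 5 expected fragments in each library; 7 of these had intervals above 0 in both libraries (Foxp3, Klrg1, Nckap5, Ikzf2, Ctla4, Itgae and Rora) and 1 below (Tcf7). Over all 16193 gene loci with that many fragments, 156 (0.963%) were above and 104 (0.642%) below, where neighbouring genes share regions. Foxp3, Klrg1 and Nckap5 are genes of the rule. Here and in the later locus counts, list loci were not matched to all loci by regions or fragments, so the counts are not like for like. The Foxp3 locus (chrX:7573644-7595245) had 210.3 against 139 CPM in the knockout library and 224 against 149 CPM in the control library. Its log2 ratios were 0.60 (0.18 to 0.97) and 0.59 (0.28 to 0.85). The Areg locus (chr5:91139599-91148432), with a single region and fewer expected fragments than that limit, had 45.3 against 13.0 CPM in the knockout library and 40.1 against 19.3 CPM in the control library. Its ratios were 1.82 (0.84 to 2.77) and 1.07 (0.25 to 1.71). Klrg1 and Nckap5 had ratios of 0.76 (0.26 to 1.16) and 0.82 (0.51 to 1.15), and of 1.09 (0.52 to 1.54) and 1.56 (1.24 to 1.91). Ikzf2 had 0.52 (0.18 to 0.87) and 0.63 (0.35 to 0.86), Ctla4 0.55 (0.17 to 0.90) and 0.31 (0.04 to 0.60) and Itgae 0.56 (0.11 to 0.95) and 0.41 (0.06 to 0.72). At Rora the ratios were 0.26 (0.06 to 0.45) and 0.34 (0.18 to 0.46), and they were no longer above 0 in both libraries when barcodes above 4000 UMIs were admitted. Tcf7 was the locus below 0, at -0.59 (-1.13 to -0.02) and -0.63 (-1.01 to -0.19), and Ifng stood at -1.43 (-3.88 to 0.00) and -1.61 (-3.21 to -0.32). RNA and locus did not always go together: Il1rl1, whose RNA chose many nuclei, had locus ratios of -0.13 (-0.80 to 0.46) and 0.17 (-0.23 to 0.58), Tnfrsf9 of 0.28 (-0.01 to 0.56) and 0.15 (-0.04 to 0.37), Il2ra of -0.10 (-0.50 to 0.34) and 0.17 (-0.10 to 0.47) and Gata3 of 0.11 (-0.41 to 0.52) and 0.47 (0.15 to 0.72). The set of loci depends on the window. Within 50 kb of the list genes, Itgae had 0.21 (-0.11 to 0.50) and -0.01 (-0.27 to 0.21). Il10, Ccr8, Batf and Il13 then had intervals above 0 in both libraries, and Il17a below. Of 22 further loci of the leading RNA genes, summed within 10 kb, 5 were above 0 in both libraries and 1 below.

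Ky was among them, with 227 against 79.3 CPM in the knockout library and 198 against 75.3 CPM in the control library, log2 ratios of 1.52 (1.08 to 1.90) and 1.40 (1.06 to 1.70). Ly75, Neb, Pcyt1a and Tmtc2 had ratios of 1.01 (0.40 to 1.57) and 1.34 (0.94 to 1.78), of 0.74 (0.27 to 1.25) and 1.01 (0.68 to 1.35), of 0.87 (0.10 to 1.46) and 0.84 (0.41 to 1.34), and of 1.11 (0.21 to 1.98) and 0.78 (0.07 to 1.30). Ssbp2, whose RNA was lower, had a locus ratio of -1.0 (-1.61 to -0.40) and -0.46 (-0.86 to -0.06). Ky, Neb and Ly75 thus carried both more RNA and more open chromatin in repair-type nuclei of both libraries.

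**Figure D4:**
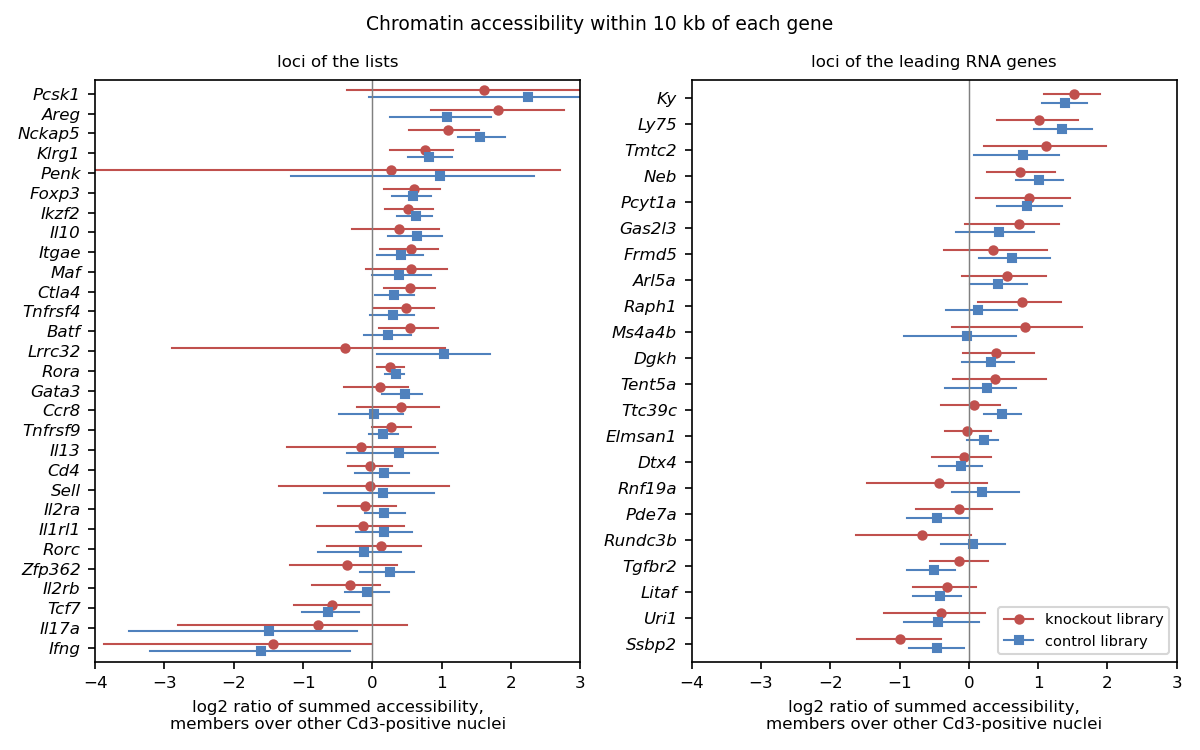
Log2 ratio of accessibility summed within 10 kb of each gene, repair-type over other Cd3-positive nuclei, with 95% counting intervals; red circles are the knockout and blue squares the control library, and intervals end at the axis limits. Foxp3, Klrg1, Nckap5, Ikzf2, Areg and Ky lie right of 0 in both libraries, and Tcf7 left of it.

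Single regions at these loci fell below the limit of 5 expected fragments and were picked after their values were seen, so they are a description. In an intron of Foxp3, the region chrX:7583699-7584600, 4473 bp downstream of the RefSeq transcript start, had 39.9 against 8.78 CPM in the knockout library (12 fragments of repair-type nuclei) and 43.1 against 9.41 CPM in the control library (22 fragments). Its log2 ratios were 2.20 (1.21 to 3.31) and 2.21 (1.41 to 2.93). The first intron of Foxp3 is known to carry an enhancer that keeps the gene on in dividing Treg cells. Upstream of Il1rl1, chr1:40426963-40427902, centred at -2138 bp from the gene start, had 21.8 against 3.96 CPM in the knockout library (6 fragments of repair-type nuclei) and 18.0 against 4.48 CPM in the control library (9 fragments). Its ratios were 2.49 (0.79 to 3.93) and 2.04 (0.70 to 3.12), although the interval of the whole locus included 0 in both libraries. Upstream of Klrg1, chr6:122283247-122284218, centred at -850 bp from the start, had 36.3 against 9.34 CPM in the knockout library (10 fragments of repair-type nuclei) and 42.1 against 10.1 CPM in the control library (21 fragments). Its ratios were 1.98 (0.77 to 3.01) and 2.07 (1.23 to 2.76). The same Klrg1 region was among the 9 leading regions against marker-negative Foxp3 nuclei, with 10 fragments against none in the knockout library, at least 1.74-fold higher when 3 fragments stand for none, and 21 against 1 in the control library. Regions at Ikzf2 (chr1:69532703-69533665), Ly75 (chr2:60328308-60329242) and Raph1 (chr1:60571408-60572323) had ratios of 2.56 (1.30 to 3.68) and 2.13 (1.12 to 3.13), of 2.40 (1.43 to 3.38) and 2.52 (1.74 to 3.25), and of 3.37 (1.46 to 4.98) and 3.18 (1.65 to 4.68).

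Promoters are shown for Areg and Ky, whose transcript starts lay in regions that were more open in repair-type nuclei, and for Foxp3, which defines the nuclei. Each runs from 250 bases before to 50 after a RefSeq transcript start (GRCm38.p6, plus strand, 5′ to 3′), in lower case with motif matches in capitals. Each motif was searched on both strands. The AP-1 motif TGACTCA occurs in 5.20% of the 32851 promoters of that length in the table. The cyclic AMP response element (CRE), TGACGTCA, occurs in 1.79%. For GATA factors AGATAA was searched, and likewise TGATAA, and 18.6% hold either of them. For forkhead factors TGTTTAC was searched, and likewise TGTTTGC, and 8.48% hold either of them. The Areg promoter is chr5:91139349-91139648, that of Ky chr9:102505888-102506187, and that of Foxp3 chrX:7579426-7579725.
Areg: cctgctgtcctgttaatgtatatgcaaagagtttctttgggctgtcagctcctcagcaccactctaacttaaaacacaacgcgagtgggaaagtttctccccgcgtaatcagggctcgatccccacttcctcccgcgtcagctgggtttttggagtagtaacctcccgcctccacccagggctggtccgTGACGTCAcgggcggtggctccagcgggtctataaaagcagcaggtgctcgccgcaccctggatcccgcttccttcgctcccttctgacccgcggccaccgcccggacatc
Ky: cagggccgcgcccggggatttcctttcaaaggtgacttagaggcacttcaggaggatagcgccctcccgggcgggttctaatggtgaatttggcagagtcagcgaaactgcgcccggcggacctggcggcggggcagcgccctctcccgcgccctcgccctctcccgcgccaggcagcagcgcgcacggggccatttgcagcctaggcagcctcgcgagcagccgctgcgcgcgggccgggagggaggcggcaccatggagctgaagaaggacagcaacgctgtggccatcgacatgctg
Foxp3: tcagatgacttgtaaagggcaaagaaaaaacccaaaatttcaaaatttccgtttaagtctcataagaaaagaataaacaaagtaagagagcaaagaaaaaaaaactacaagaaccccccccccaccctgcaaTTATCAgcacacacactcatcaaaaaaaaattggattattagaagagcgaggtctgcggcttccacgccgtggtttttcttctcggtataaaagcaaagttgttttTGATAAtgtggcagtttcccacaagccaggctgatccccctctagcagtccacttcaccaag

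The Areg window holds 1 CRE match, the Foxp3 window 2 GATA matches, and the Ky window none of the motifs. The region over the Ky start had 50.8 against 12.3 CPM in the knockout library (14 fragments of repair-type nuclei) and 40.1 against 9.06 CPM in the control library (21 fragments). Its log2 ratios were 2.06 (1.04 to 2.92) and 2.16 (1.40 to 2.96), and a second region upstream (chr9:102501869-102502937) had ratios of 2.18 (1.18 to 3.0) and 2.07 (1.37 to 2.69). At the Areg start the ratios are those of the locus above. The region over the Foxp3 start held few counts, 3.63 against 2.41 CPM in the knockout library on 1 fragment and 16.0 against 5.98 CPM in the control library on 9 fragments, with ratios of 0.87 (-4.94 to 3.36) and 1.46 (0.27 to 2.59). A motif match is a run of letters, and no binding was measured.

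Against marker-negative Foxp3 nuclei, 199 of 14992 measured regions (1.33%) were called higher and 108 (0.72%) lower, with 33 and 92 nuclei behind the comparison. The leading regions held 0 to 8 fragments in the marker-negative nuclei of a library, and lay near or in Poc1b, Tfrc, Zfp467, Sms, Klrg1, Phlda1, Rad50, Ppm1b and Azin1. Where marker-negative nuclei held none, repair-type fragments alone met the floor, so the ranking of these regions is a description. The Ppm1b region was also the leading one against all other Cd3-positive nuclei, in a comparison that shares the repair-type nuclei; here its ratios were 1.91 (0.08 to 5.31) and 1.20 (0.08 to 2.71). Of 24 list loci with at least 5 expected fragments here, Rora alone had intervals above 0 in both libraries and none lay below, against 13 (0.0813%) above and 16 (0.1%) below of 15986 gene loci. Rora had ratios of 0.41 (0.09 to 0.81) and 0.52 (0.23 to 0.74), and Ly75, a locus of a leading RNA gene, of 1.20 (-0.06 to 2.59) and 1.59 (0.70 to 2.81). Most loci that were higher against all other Cd3-positive nuclei had intervals that included 0 in this comparison: Foxp3 had ratios of 0.42 (-0.27 to 1.21) and 0.42 (-0.09 to 0.94), Klrg1 of 0.79 (-0.12 to 1.68) and 0.25 (-0.29 to 0.78), Ikzf2 of 0.43 (-0.16 to 1.12) and 0.02 (-0.38 to 0.44), Ctla4 of 0.00 (-0.58 to 0.64) and 0.07 (-0.41 to 0.52) and Itgae of 0.48 (-0.27 to 1.31) and 0.01 (-0.51 to 0.58). Nckap5 had 0.61 (-0.37 to 1.54) and 0.78 (0.18 to 1.45), and the thinly covered Areg locus 1.56 (-0.38 to 4.95) and 0.39 (-0.83 to 1.81). Within 50 kb in place of 10 kb, the Il13 locus was also above 0 in both libraries, at 2.02 (0.96 to 3.69) and 1.22 (0.55 to 2.00).

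To describe the deletion of Zfp362 in this population, the repair-type nuclei of the knockout and control libraries were compared last. Zfp362 itself was too low to check the labels in repair-type nuclei, with 1 UMI (6.62 CPM) in the knockout and 5 UMIs (13.9 CPM) in the control library, a log2 ratio of -0.62 (-6.63 to 2.09). In the other Cd3-positive nuclei it had 12 UMIs (6.46 CPM) in the knockout and 47 UMIs (11.9 CPM) in the control library, a ratio of -0.83 (-1.93 to 0.06). Which exons are floxed is not given in the sources used here, and reads outside them would not report the deletion. Accessibility within 10 kb of Zfp362 was lower in knockout repair-type nuclei, with a ratio of -1.12 (-1.99 to -0.29), against -0.50 in the other Cd3-positive nuclei.

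Of 1993 genes with at least 50 UMIs over the repair-type nuclei of both libraries, 19 (0.953%) were called higher in the knockout, at 2-fold or more, and 32 (1.61%) lower; the intervals of 176 (8.83%) lay above and of 185 (9.28%) below 0, around a median of -0.01. With TMM scaling the split was 15 higher and 42 lower. Without the upper UMI limit the balance turned, with 82 higher and 67 lower. Cd4 led, with 695 CPM (105 UMIs) in knockout and 169 CPM (61 UMIs) in control repair-type nuclei, a log2 ratio of 2.03 (1.57 to 2.52), and it was also higher in the other Cd3-positive nuclei, at 1.53 (1.42 to 1.64). Reads from Cd4 sequence in the Cre transgene and reads from the Cd4 gene cannot be told apart in these files. Ahr had 238 CPM (36 UMIs) in knockout and 108 CPM (39 UMIs) in control repair-type nuclei, a ratio of 1.14 (0.44 to 1.83), against 0.06 (-0.17 to 0.28) in the other Cd3-positive nuclei. Mbnl1, which encodes a splicing factor and rested on the most UMIs of the named genes, had 3845 CPM (581 UMIs) in knockout and 1849 CPM (667 UMIs) in control repair-type nuclei, a ratio of 1.06 (0.89 to 1.22), against 0.80 (0.76 to 0.85). Smc6, Tasp1, Fbxw11, Ktn1, Sclt1, Tbc1d9b and Tmem131 had ratios between 1.07 and 1.14; Ktn1 and Tmem131 turned lower when barcodes above 4000 UMIs were admitted.

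On the lower side, Irf4 had 33.1 CPM (5 UMIs) in knockout and 125 CPM (45 UMIs) in control repair-type nuclei, a ratio of -1.79 (-3.60 to -0.59), against 0.13 (-0.14 to 0.39) in the other Cd3-positive nuclei. Tgfbr1, the type I TGF-beta receptor gene, had 79.4 CPM (12 UMIs) in knockout and 199.5 CPM (72 UMIs) in control repair-type nuclei, a ratio of -1.28 (-2.35 to -0.44). Hnrnpab, an RNA-binding protein gene, and Micos10, a gene of the mitochondrial inner membrane complex, had 6 and 5 UMIs in the knockout against 59 and 48 in the control library, ratios of -1.94 (-3.54 to -0.84) and -1.88 (-3.69 to -0.69). S100a6, a calcium-binding protein gene, had 119 CPM (18 UMIs) in knockout and 285 CPM (103 UMIs) in control repair-type nuclei, a ratio of -1.23 (-2.07 to -0.53). Fchsd2, Plekha5, Lrrfip1, Cox7a2l and Clip1 made up the 10 lowest, with ratios between -1.50 and -1.18; Lrrfip1 and Clip1 were no longer lower without the upper UMI limit. In the knockout library a single nucleus held 40.0% of the few Micos10 UMIs, 33.3% of those of Plekha5, 25.0% of Tgfbr1 and 22.2% of Clip1.

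Of 14 Treg identity genes measured in this comparison, none was called, 2 (Ikzf2 and Ctla4) had intervals above 0 and 1 (Rgs1) below, with a median of -0.05. Over all 1993 measured genes 0.953% were called higher and 1.61% lower, and 8.83% had intervals above and 9.28% below 0. A lack of calls in a list here thus does not set that list apart. Foxp3 had 629 CPM (95 UMIs) in knockout and 568 CPM (205 UMIs) in control repair-type nuclei, a ratio of 0.15 (-0.22 to 0.50). Ikzf2 had 3838 CPM (580 UMIs) in knockout and 2957 CPM (1067 UMIs) in control repair-type nuclei, a ratio of 0.38 (0.23 to 0.52), against 0.20 (0.14 to 0.27) in the other nuclei, and Ctla4 a ratio of 0.17 (0.00 to 0.34). Of 17 measured repair genes, Ahr was called higher and Irf4 lower, the intervals of 1 lay above and of 5 below 0, 8 had ratios above 0, and the median was -0.10. Areg had 814 CPM (123 UMIs) in knockout and 1095 CPM (395 UMIs) in control repair-type nuclei, a ratio of -0.42 (-0.73 to -0.13), against 0.00 (-0.15 to 0.15) in the other nuclei. Rora had a ratio of -0.34 (-0.50 to -0.17), against 0.22 (0.16 to 0.27), and Itgae of -0.92 (-1.77 to -0.20), against 0.36 (0.07 to 0.65). Of the genes of the rule, Il1rl1 had a ratio of -0.29 (-0.58 to -0.01), Klrg1 of 0.19 (-0.27 to 0.64), Nckap5 of 0.63 (0.38 to 0.87) and Penk of -0.98 (-1.70 to -0.36), a description since they chose the nuclei in both libraries. Of 13 measured suppressive effector genes, none was called, and the intervals of 2 lay above and of 4 below 0. Il10 had 887 CPM (134 UMIs) in knockout and 682 CPM (246 UMIs) in control repair-type nuclei, a ratio of 0.38 (0.06 to 0.69). Tgfb1, Gzmb and Fgl2 had ratios of -0.65 (-1.30 to -0.08), of -0.73 (-1.27 to -0.25), and of -0.92 (-1.91 to -0.11). In the other nuclei Tgfb1 and Fgl2 were also lower, at -0.37 (-0.57 to -0.18) and -0.39 (-0.72 to -0.07). Il10 and Gzmb had -0.06 (-0.23 to 0.11) and -0.10 (-0.28 to 0.06) there. Dgat2 had a ratio of 1.0 (0.06 to 1.91) in repair-type and 0.99 (0.57 to 1.41) in the other nuclei. Pparg, a lipid-sensing nuclear receptor gene known from visceral fat Treg cells, had 1 knockout and 23 control UMIs, a ratio of -2.71 (-8.63 to -0.64), and Tcf7 had 0 knockout and 16 control UMIs, at least 2.23-fold lower in the knockout library. In the other nuclei Pparg was also lower, at -1.69 (-2.95 to -0.75), and Tcf7 had 0.06 (-0.18 to 0.30). Dgat2, Pparg and Tcf7 had fewer UMIs than the limit of 50 for a measured gene in this comparison. Whether any of these ratios differs between repair-type and other nuclei was not tested.

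**Figure D5:**
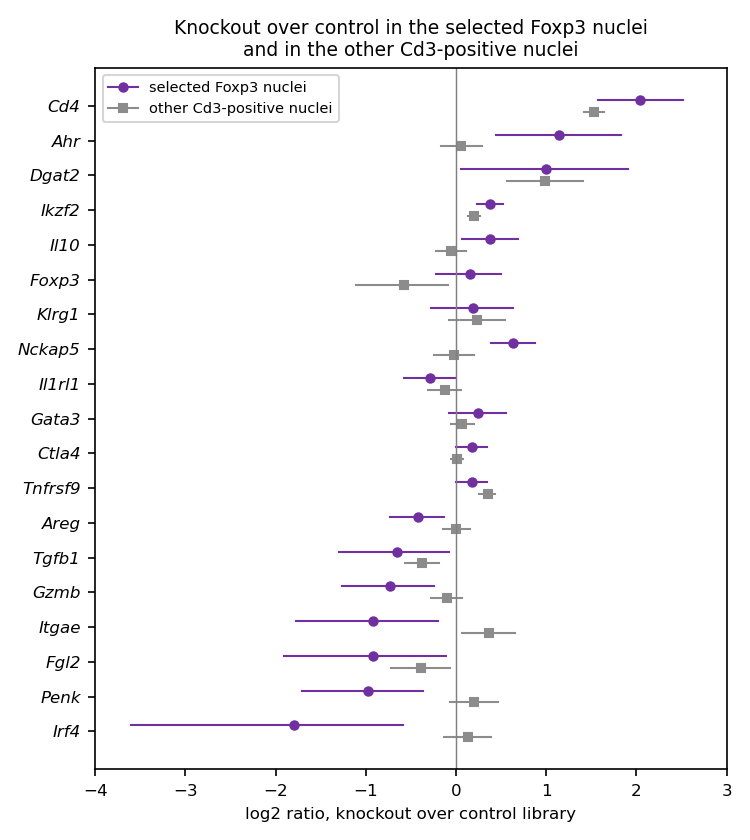
Log2 ratio of RNA in the knockout over the control library for 19 genes, in repair-type nuclei (purple circles) and in the other Cd3-positive nuclei (grey squares), with 95% counting intervals over 1 library per genotype. Cd4 is right of 0 in both populations, Foxp3 of repair-type nuclei spans 0, and Irf4, Penk and Itgae are left of 0 in repair-type nuclei.

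Accessibility of repair-type nuclei was compared between the libraries over 7866 regions with at least 30 fragments, of which 104 (1.32%) were called higher and 180 (2.29%) lower in the knockout. Without the upper UMI limit the balance turned, with 772 higher and 469 lower. The leading region lies in an intron of Cd4 (chr6:124884880-124885797) and had 48 fragments (174 CPM) in the knockout and 10 fragments (20.4 CPM) in the control library, a log2 ratio of 3.06 (2.12 to 4.27). The Cd4 locus as a whole had a ratio of 1.38 (0.89 to 1.87), with the same limit from the transgene as for its RNA. Of the next leading regions, 1 lies between genes 22047 bp from Lmnb1 and 1 in an intron of Osbpl9, and others at transcript starts, among them those of Usf2, Ube2r2, Plcxd2, Mrps23 and Runx3, a T cell transcription factor gene. The lowest lie at the starts of Camk1d, Gemin7, Adssl1 and Pcyt2 and in an exon of Col15a1. Transcript starts held 80 of the 104 higher (76.9%) and 128 of the 180 lower regions (71.1%), against 6373 of the 7866 measured. With at least 60 fragments, 21 regions were called. Of 23 list loci with at least 30 fragments, Cd4 alone had an interval above 0, and Zfp362 and Gata3 below, against 310 (2.3%) above and 315 (2.34%) below of 13486 gene loci; Gata3 had a ratio of -0.52 (-1.07 to -0.02), while its RNA had a ratio of 0.24 (-0.08 to 0.55). Foxp3, Klrg1 and Areg loci had ratios of -0.08 (-0.56 to 0.38), of -0.12 (-0.69 to 0.35), and of 0.19 (-0.90 to 1.31). Within 50 kb in place of 10 kb, the Il1rl1 locus was also below 0, at -0.42 (-0.85 to -0.01).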

How the data were processed

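The authors made the deposited raw counts with Cell Ranger ARC 2.0.1 on mm10, per the submitters' processing notes. Each nucleus has UMI counts for 32285 genes and counts in peaks, 85738 in the knockout and 83851 in the control library, whose peak sets differ. Since 90.7% and 91.7% of the peak counts were even, each pair of counts was taken as 1 fragment, odd ones upward, and peak intervals rest on fragments. Library totals were 9348999 and 10803590 UMIs. No earlier filter is stated in the labels.

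UMIs were summed over the nuclei of a population in each library and expressed as CPM. Log2 ratios used a pseudocount of 0.5, with exact conditional 95% intervals of a ratio of 2 Poisson counts, and Clopper-Pearson intervals for shares. With 1 library per genotype nuclei are not replicates, so no p-value was computed. Named genes were the 15 highest and 10 lowest against other Cd3-positive nuclei, the 8 highest and 5 lowest against marker-negative Foxp3 nuclei, and the 10 highest and 10 lowest of knockout over control; their intervals lay on 1 side of 0 in each library compared, and no nucleus held over 20% of the UMIs of the repair-type nuclei (for knockout over control, in the library with the higher level). Not ranked were the rule genes, Zfp362 and sex-linked, antigen receptor or mitochondrial genes. Regions were named likewise, 10 highest and 5 lowest, and members of the lists could be named. Members, lists and rules were chosen with earlier results of these data known.

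Peaks of the libraries were joined where they overlap by 1 base or more, and placed with the GENCODE vM21 annotation of mm10. Promoters came from RefSeq tables, in which 117 of 154 genes matched. No doublet caller was run, and the upper limit of 4000 UMIs was the only guard. The ratios and intervals were tested on simulated Poisson counts. The simulation holds no spread between nuclei, so it checks the code and not how the intervals fare under such spread. Python 3.11.15, numpy 2.4.6, scipy 1.17.1, pandas 2.3.3, matplotlib 3.10.9 and edgeR 4.0.16 (TMM factors) were used. Alternatives were other UMI windows and marker rules, nuclei without innate lymphoid cell transcripts, thinning, other filters and pseudocounts, fragments, other overlaps and scaling. List loci were also summed within 50 kb.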

Additional observations from a re-analysis of the deposited data

Results flagged for a closer look

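Irf4, a transcription factor gene of effector Treg cells, stood out because its RNA in repair-type over other Cd3-positive nuclei lay on opposite sides of 0 in the libraries, with a log2 ratio of -1.42 in the knockout and 0.51 in the control library. It rested on 5 UMIs in the 63 knockout and 45 UMIs in the 150 control nuclei. The difference between the libraries was not tested.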

How the results depend on the processing

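No paired analysis was possible because each genotype has 1 library. Each choice was changed alone. Called genes and regions are given for repair-type over other Cd3-positive nuclei (174 genes, 168 regions), over marker-negative Foxp3 nuclei (118 and 307), and for knockout over control (51 and 284). Without the upper limit of 4000 UMIs the gene counts were 44, 276 and 149, and the region counts 186, 2185 and 1241; the balance of higher and lower turned in all comparisons but those of genes over other Cd3-positive nuclei and of regions over marker-negative nuclei. Thinning to 1000 UMIs gave 58 genes over marker-negative nuclei and 24 for knockout over control. A marker sum of at least 2 gave 143 regions over marker-negative nuclei. A floor of 10 expected UMIs gave 114 and 30 genes, and of 1 expected UMI 518 and 620. A floor of 10 expected fragments gave 7 and 34 regions. For knockout over control, floors of 100 and 20 UMIs gave 8 and 393 genes, and a floor of 60 fragments 21 regions. The share of Cd3-positive nuclei, 7.14% knockout and 7.39% control, was 12.5% and 9.72% without the upper limit and 3.47% and 3.68% after thinning; in the control library it was 6.11% with a marker sum of at least 2 and 5.91% without Nckap5 in the rule. The share of Foxp3-positive nuclei, 65.6% and 62.0%, was 54.2% and 51.2% with a marker sum of at least 2 and 52.6% and 50.9% after thinning, 78.6% in the knockout library without the upper limit, and 49.6% in the control library without Nckap5. Treg identity genes above 0 in both libraries were 7 after thinning in place of 11, and repair genes 4 in place of 9.

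Without the upper limit some ratios changed sign, for comparisons within a library in at least 1 library. For genes in those comparisons, the value of the library furthest across 0 is given. Over other Cd3-positive nuclei it was 0.0556 for Litaf and 0.0473 for Ssbp2. Over marker-negative nuclei it was -0.42 for Cybb, -0.40 for Gas2l3, 0.0038 for Rybp, 0.49 for Igf1r, 0.23 for Bach2, 0.16 for Grap2 and 0.30 for Txk. Knockout over control gave -0.0607 for Ktn1, -0.23 for Tmem131, 0.0435 for Lrrfip1 and 0.0093 for Clip1. The Rora locus had -4.8e-05 in the knockout library. The cause was not tested. Over the named genes, regions and loci, 1038 of 1120 values kept their sign and stayed inside the reported counting interval of the ratio nearer to 0. Of the rest, 68 left that interval and 14 changed sign. Some of these intervals are wide. A changed floor of UMIs or fragments alters no ratio, so those values could not move and count among the 1038. TMM scaling moved the median gene by -0.11 and -0.06 over other Cd3-positive nuclei and by -0.07 for knockout over control. Depth limits the knockout library most, where 63 nuclei carry 151124 UMIs.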
